A study of Mus musculus with 16 samples.

Results

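Integrins, cadherins and claudins, the membrane proteins that hold cells to matrix and to each other, were followed across 4 groups of mouse embryonic stem (ES) cells. The genes were taken by symbol: all array probes whose gene symbol begins with Itga or Itgb, or is Cdh or Cldn followed by a digit, leaving out the integrin-binding proteins named Itgb1bp and Itgb3bp. This gave 67 genes, of 16593 named genes on the array, read by 106 of its 25697 probes: 26 probes for 15 integrin alpha genes, 15 for 10 integrin beta genes, 34 for 19 cadherin genes and 31 for 23 claudin genes. The study set loss of heparan sulfate sulfation beside inhibition of fibroblast growth factor (FGF) receptors. Wild-type CCE ES cells were left untreated, were given 20 mM sodium chlorate (NaClO3-, an inhibitor of sulfation) for 24 h, or were given 5 µM SU5402 (an inhibitor of FGF receptors) for 24 h. The remaining group was untreated Ndst1/2-/- ES cells, which lack both copies of a pair of enzymes that start the sulfation of heparan sulfate chains. The labels name CCE for the untreated wild-type cells and no parental line for the Ndst1/2-/- cells, so line and genotype cannot be told apart. All cells grew on gelatin, without a feeder layer being named, in serum with leukaemia inhibitory factor. Each group had 3 cultures, and culture 3 of each group was measured on 2 arrays.

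Integrins are pairs of an alpha and a beta chain that bind matrix proteins such as laminin and fibronectin outside the cell and talin and kindlins inside it. Classical cadherins bind the same cadherin on the next cell and are tied to actin through catenins, and E-cadherin (Cdh1) holds mouse ES cells in compact colonies. Claudins are the strand-forming proteins of tight junctions, and they set which ions pass between epithelial cells.

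Of the 106 probes, 68 were detected on no array (detection p-value under 0.01 taken as detected), and 21 were detected on all 16. The filter, detection in at least 3 of 12 cultures, left 30 probes for 23 genes: 9 integrin alpha, 6 integrin beta, 6 cadherin and 9 claudin probes. The other 44 genes were not tested, among them Cdh2 and Cdh5 (N-cadherin and VE-cadherin), which no array detected. A further 8 probes were detected on 1 to 4 arrays and not tested, including probes for Itgb3, Itga2b, Itgb2 and Cdh4. A probe that passed through 1 bright group had to differ, so the counts below describe the tested probes and not all members.

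The largest difference was that of Cldn6, which was 5.81-fold lower in Ndst1/2-/- cells than in untreated wild type. Itga3 and Itgb7 fell, and Itgb5, Cdh3 and Cldn4 rose, in each of the 3 comparisons with untreated wild type, which share the same control cultures. Itga5 and Itga6 rose in Ndst1/2-/- cells, and neither passed the test with chlorate or SU5402. Cdh1 missed the threshold in all 3, and passed it under some of the alternative settings.

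Chlorate raised 8 of the 30 tested probes (background: 14.2% of all 13377 tested probes rose) and lowered 2 (14.2% fell). SU5402 raised 8 (11.9% of all rose) and lowered 4 (11.6% fell). In Ndst1/2-/- cells 11 were higher (30.4% of all) and 10 lower (32.2%), so that 21 of 30, or 70%, changed, against 62.7% of all probes. The share changed was 33.3% for chlorate, against 28.4% of all, and 40% for SU5402, against 23.5%. The median absolute log2 fold change of the 30 was 0.19 with chlorate, 0.23 with SU5402 and 0.37 in Ndst1/2-/- cells, and that of all probes was 0.14, 0.13 and 0.30. With probes that a whole group left undetected set to the smallest change their detection limit allows, the medians of the 30 were 0.16, 0.23 and 0.36. By the F-test over the 4 groups 22 of 30 differed, or 73.3%, against 69% of all. A probe was called at a Benjamini-Hochberg adjusted p under 0.05 over all tested probes (limma). Values are log2 intensities and errors of fold changes are standard errors (SE).

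**Figure D1:**
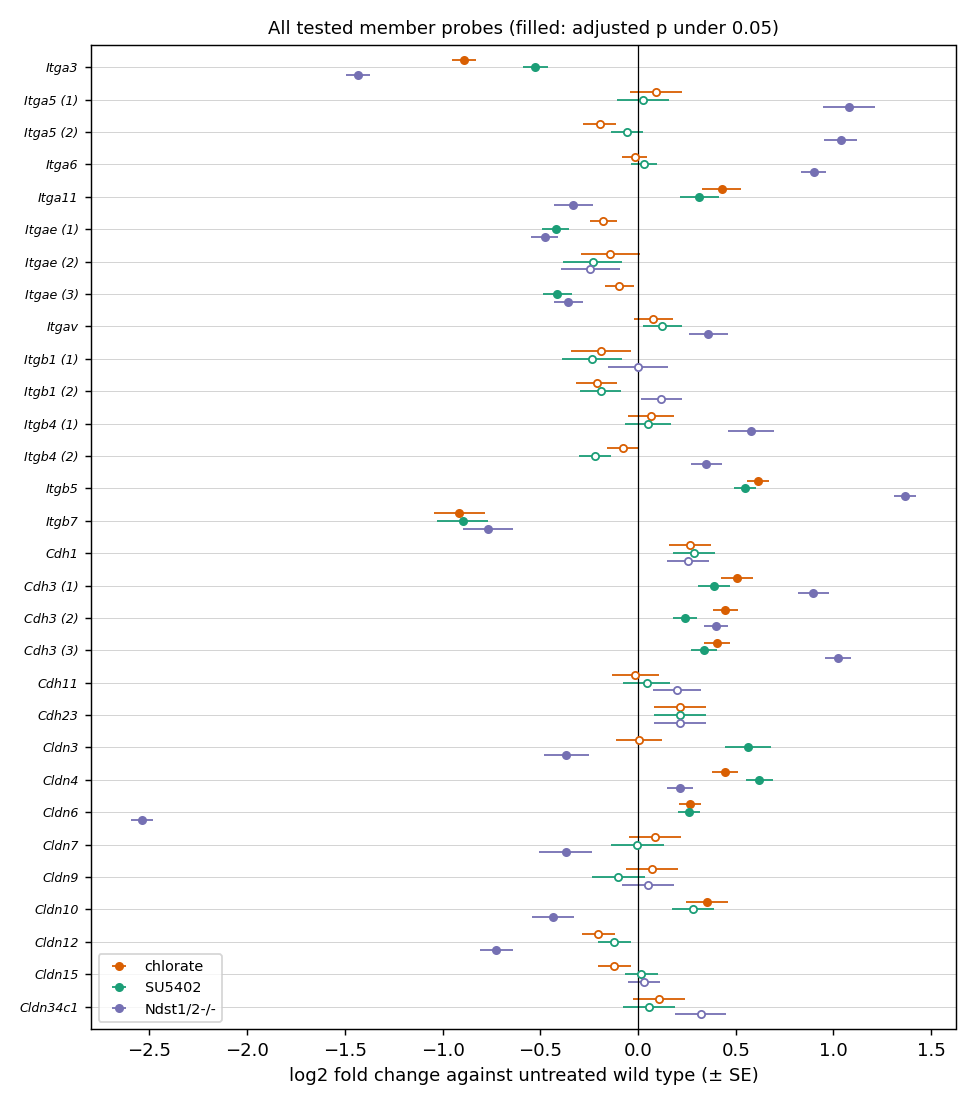
Log2 fold change against untreated wild type (x axis, with bars of 1 SE) of the 30 tested probes (y axis, by gene, probes of 1 gene numbered), for chlorate, SU5402 and Ndst1/2-/- cells, 3 cultures per group. Filled points passed the adjusted p threshold. Cldn6 lies farthest to the left, at -2.54 in Ndst1/2-/- cells, and Itgb5 farthest to the right, at 1.37. The filled Ndst1/2-/- points of Itga11 and Cldn3 compare groups in which no array detected the probe.

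The 7 genes whose change reached 0.8 on the log2 scale against untreated cells were Itga3, Itga5, Itga6, Itgb5, Itgb7, Cdh3 and Cldn6. RefSeq promoter windows (build GRCm38.p6, 250 bases before and 50 after the start) were at hand for 5 of them, and are printed because these are the genes that moved most. Capitals mark the E-box CACCTG, bound by Snail and Zeb factors and read CAGGTG on the other strand, and the core CCGGAA bound by ETS factors.
Itga3 promoter, chr11:95076665-95076964, minus strand: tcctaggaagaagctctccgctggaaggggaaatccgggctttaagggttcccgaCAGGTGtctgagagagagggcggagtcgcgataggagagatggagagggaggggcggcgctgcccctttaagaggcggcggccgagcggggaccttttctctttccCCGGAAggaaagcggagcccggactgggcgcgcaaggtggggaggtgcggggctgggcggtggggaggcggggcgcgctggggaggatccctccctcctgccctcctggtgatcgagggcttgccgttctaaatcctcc
Itgb7 promoter, chr15:102231886-102232185, minus strand: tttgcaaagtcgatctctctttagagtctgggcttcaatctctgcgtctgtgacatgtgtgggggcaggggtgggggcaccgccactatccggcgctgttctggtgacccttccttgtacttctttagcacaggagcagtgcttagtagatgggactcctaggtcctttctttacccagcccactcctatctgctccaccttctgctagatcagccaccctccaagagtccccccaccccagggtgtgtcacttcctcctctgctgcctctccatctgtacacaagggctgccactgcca
Itgb5 promoter, chr16:33829415-33829714, plus strand: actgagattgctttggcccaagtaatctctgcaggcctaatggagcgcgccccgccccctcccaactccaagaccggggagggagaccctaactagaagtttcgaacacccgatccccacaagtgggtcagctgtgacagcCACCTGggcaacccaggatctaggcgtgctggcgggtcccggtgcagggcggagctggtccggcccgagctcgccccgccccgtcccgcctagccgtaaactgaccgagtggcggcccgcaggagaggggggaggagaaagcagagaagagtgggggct
Itga5 promoter, chr15:103366742-103367041, minus strand: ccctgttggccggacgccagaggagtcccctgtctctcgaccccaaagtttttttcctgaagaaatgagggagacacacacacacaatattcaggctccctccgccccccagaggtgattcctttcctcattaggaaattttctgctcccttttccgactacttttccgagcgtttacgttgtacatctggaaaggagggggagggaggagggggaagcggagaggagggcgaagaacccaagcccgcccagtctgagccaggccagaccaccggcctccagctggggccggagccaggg
Cldn6 promoter, chr17:23679115-23679414, plus strand: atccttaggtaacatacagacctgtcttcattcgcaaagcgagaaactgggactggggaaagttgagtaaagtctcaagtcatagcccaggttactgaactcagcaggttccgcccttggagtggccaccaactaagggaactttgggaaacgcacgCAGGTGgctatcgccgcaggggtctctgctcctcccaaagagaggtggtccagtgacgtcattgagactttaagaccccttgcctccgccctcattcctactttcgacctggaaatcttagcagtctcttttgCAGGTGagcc
The Cldn6 window held 2 E-boxes, the first 93 bases before the start and the second 40 bases after it. The Itga3 window, at the first of 2 listed starts, held an E-box 195 bases and an ETS core 89 bases before the start, and the window of the second start, not printed, held neither. The Itgb5 window held an E-box 109 bases before it, and the Itga5 and Itgb7 windows had neither. Of 32851 promoter windows of this length, 20.2% held the E-box and 14.9% the ETS core, on either strand. The Grainyhead-like motif AACCGGTT, in 0.146% of windows, was in none of the 5. The Sp1 motif GGGCGG, in 35.7% of windows, stood 3 times in Itga3 and Itgb5, 2 times in Itga5 and Cldn6, and not in Itgb7. The AP-2 motif GCCNNNGGC, in 16.6%, was in none. None of these motifs overlapped another in the 5 windows. A match is a run of letters, and binding was not measured.

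Among alpha chains, Itga3 (chromosome 11), which pairs with beta1 to bind laminins, fell in all 3 comparisons. Its log2 intensity was 9.54, 9.62 and 9.54 in the untreated cultures. It was 8.66, 8.72 and 8.65 with chlorate, 9.05, 9.09 and 8.98 with SU5402, and 8.25, 8.05 and 8.11 in Ndst1/2-/- cells. No 2 groups overlapped. The fall was 1.85-fold with chlorate (-0.89 ± 0.06 on the log2 scale, 3 cultures in each group, adjusted p = 5.36e-07), 1.44-fold with SU5402 (-0.53 ± 0.06, adjusted p = 7.13e-05) and 2.70-fold in Ndst1/2-/- cells (-1.43 ± 0.06, adjusted p = 8.92e-10). The 3 groups also differed from each other: SU5402 was 0.36 ± 0.06 above chlorate (adjusted p = 0.0115), and Ndst1/2-/- cells were below chlorate by a log2 difference of -0.54 ± 0.06 (adjusted p = 9.39e-06) and below SU5402 by -0.91 ± 0.06 (adjusted p = 8.57e-08).

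Itga5 (chromosome 15), the alpha chain of the fibronectin receptor, has 2 tested probes that moved alike. Probe ILMN_2849449 read 7.26, 7.03 and 7.08 untreated, 6.80, 7.09 and 6.88 with chlorate, 7.03, 7.10 and 7.07 with SU5402, and 8.08, 8.19 and 8.20 in Ndst1/2-/- cells. All 3 Ndst1/2-/- cultures lay above the 9 wild-type cultures, and the wild-type groups overlapped. The rise in Ndst1/2-/- cells was 2.05-fold (1.04 ± 0.08, adjusted p = 2.28e-07), and 2.11-fold by the second probe (1.08 ± 0.13, adjusted p = 1.22e-05). Against untreated cells the 95% interval of the log2 change of ILMN_2849449 was -0.38 to -0.02 with chlorate (adjusted p = 0.0965) and -0.23 to 0.12 with SU5402 (adjusted p = 0.681). The direct tests found Ndst1/2-/- cells 1.23 ± 0.08 above chlorate and 1.09 ± 0.08 above SU5402 (adjusted p = 6.07e-08 and 1.89e-07).

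Itga6 (chromosome 2), a laminin-binding chain that pairs with beta1 or beta4, read 8.48, 8.59 and 8.64 untreated and 9.35, 9.52 and 9.52 in Ndst1/2-/- cells. With chlorate it read 8.54, 8.50 and 8.61, and with SU5402 8.58, 8.62 and 8.59. The 3 Ndst1/2-/- cultures stood above all 9 wild-type cultures. The rise was 1.86-fold (0.90 ± 0.07, adjusted p = 9.78e-08), and Ndst1/2-/- cells were 0.92 ± 0.07 above chlorate and 0.87 ± 0.07 above SU5402 (adjusted p = 1.09e-07 and 1.8e-07). The intervals of the change with chlorate (-0.16 to 0.12) and SU5402 (-0.11 to 0.17) both held 0.

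The remaining alpha chains changed less. Itgav, which binds vitronectin and other ligands through their RGD motif, rose 1.28-fold in Ndst1/2-/- cells (0.36 ± 0.10, adjusted p = 0.00718), from a mean of 5.82 (SD 0.23) to 6.18 (SD 0.11), and 1 untreated culture lay among the Ndst1/2-/- values. Itgae, the alphaE chain that pairs with beta7 and binds E-cadherin, has 3 tested probes. On ILMN_1217629 the untreated mean was 6.92 (SD 0.06), and the means were 6.75 (SD 0.08) with chlorate, 6.50 (SD 0.09) with SU5402 and 6.45 (SD 0.07) in Ndst1/2-/- cells. That probe fell with SU5402 (-0.42 ± 0.07, adjusted p = 0.000703) and in Ndst1/2-/- cells (-0.48 ± 0.07, adjusted p = 4.55e-05), and ILMN_2699898 fell with both as well (-0.41 ± 0.07 and -0.36 ± 0.07). The third, ILMN_1249573, gave -0.23 ± 0.15 and -0.25 ± 0.15 and was not called. No Itgae probe was called with chlorate, at -0.18, -0.14 and -0.09.

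Itga11, a collagen-binding chain known from fibroblasts, was close to background. Its probe was detected on 0 untreated arrays, on all 4 with chlorate, on 2 of 4 with SU5402 and on 0 in Ndst1/2-/- cells. It passed the filter only through the inhibitor groups, where it was high, so its values are a description, with no p-value. It was at least 1.08-fold higher with chlorate than untreated, where a bound sets the brighter group against the lowest detected signal on each array of the other. The bound with SU5402 was 1.00, and for Ndst1/2-/- against untreated cells no fold is given. The SU5402 call was lost without untreated culture 2 or 3, or without SU5402 culture 1 or 3 (fitted log2 change 0.21 to 0.40 over the 12 fits that each leave out 1 culture). The Ndst1/2-/- call was lost without untreated culture 1.

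**Figure D2:**
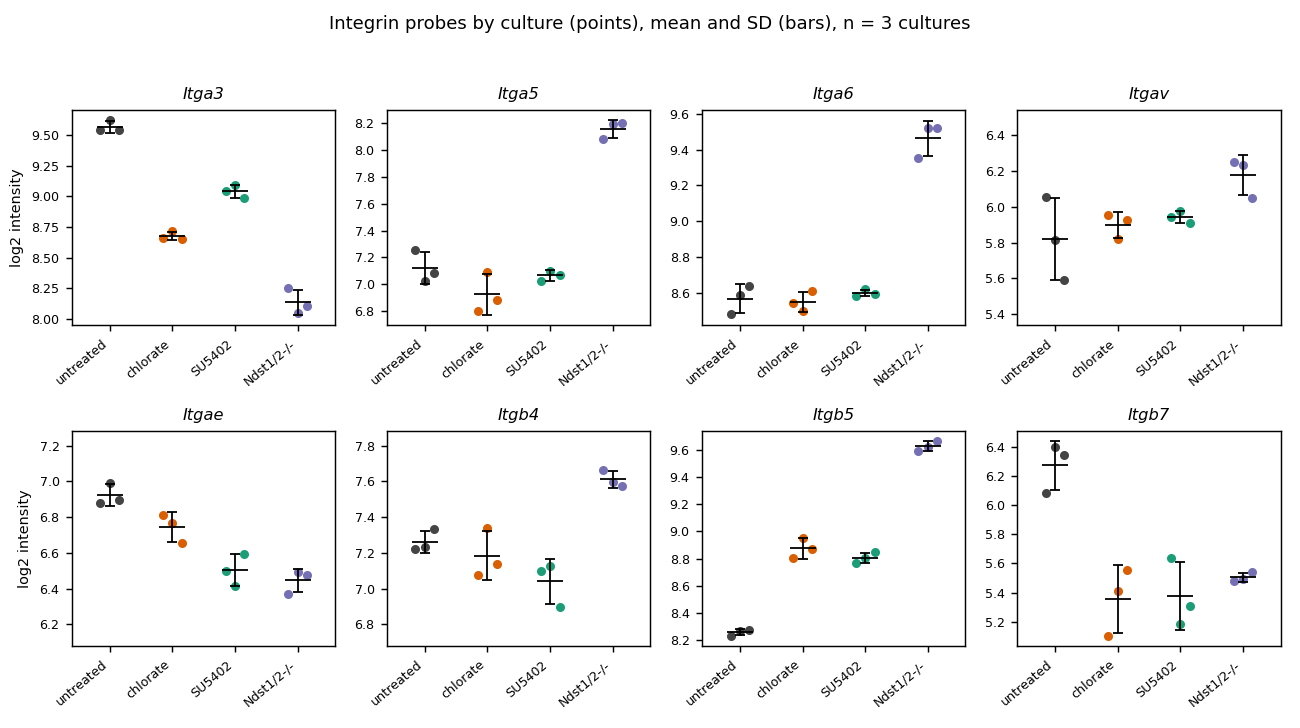
Log2 intensity (y axis, scaled separately in each panel) of 8 integrin genes, 1 probe each, in the 3 cultures of each group (points), with group mean and SD (bars). Itga3 is highest untreated, at 9.57, lower with chlorate (8.68) and SU5402 (9.04), and lowest in Ndst1/2-/- cells, at 8.13. Itga5 and Itga6 are high in the Ndst1/2-/- cultures, and Itgb7 is high in the untreated cultures.

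Among beta chains, Itgb5 (chromosome 16), which pairs with alphaV to bind vitronectin, rose in all 3 comparisons. It read 8.23, 8.27 and 8.27 untreated, 8.80, 8.95 and 8.87 with chlorate, 8.77, 8.80 and 8.85 with SU5402, and 9.59, 9.62 and 9.67 in Ndst1/2-/- cells. The untreated cultures were below and the Ndst1/2-/- cultures above all others, and the 2 inhibitor groups overlapped. The rise was 1.53-fold with chlorate (0.62 ± 0.06, adjusted p = 4.56e-06), 1.46-fold with SU5402 (0.55 ± 0.06, adjusted p = 1.96e-05) and 2.58-fold in Ndst1/2-/- cells (1.37 ± 0.06, adjusted p = 4.4e-10). Ndst1/2-/- cells were 0.75 ± 0.06 above chlorate and 0.82 ± 0.06 above SU5402 (adjusted p = 1.54e-07 and 6.75e-08). The inhibitors differed by -0.07, with an interval of -0.19 to 0.05 (SU5402 minus chlorate).

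Itgb7 (chromosome 15), a beta chain known from lymphocytes, where it pairs with alpha4 or alphaE, fell in all 3. It read 6.08, 6.39 and 6.34 untreated, 5.10, 5.41 and 5.56 with chlorate, 5.63, 5.18 and 5.31 with SU5402, and 5.48, 5.49 and 5.54 in Ndst1/2-/- cells. Every untreated culture lay above the 9 others, and those 9 overlapped. The log2 change was -0.91 ± 0.13 with chlorate (adjusted p = 0.0002), -0.90 ± 0.13 with SU5402 (adjusted p = 0.000331) and -0.77 ± 0.13 in Ndst1/2-/- cells (adjusted p = 0.000203), folds of 1.88, 1.86 and 1.70. The Ndst1/2-/- cells differed from chlorate by 0.15 (interval -0.14 to 0.43) and from SU5402 by 0.13 (-0.15 to 0.41), neither past the threshold.

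Itgb4, the laminin-receptor chain of hemidesmosomes and the second partner of alpha6, rose in Ndst1/2-/- cells on both tested probes. ILMN_2634689 rose by 0.58 ± 0.12 (adjusted p = 0.00085) and ILMN_3144575 by 0.35 ± 0.08 (adjusted p = 0.00214), and both were also higher than with chlorate (0.51 and 0.43) and with SU5402 (0.53 and 0.57). Neither was called with an inhibitor. Itgb1, the common partner of alpha3, alpha5 and alpha6, was not called against untreated cells on either probe. The change in Ndst1/2-/- cells was 0.00 ± 0.15 on ILMN_2609304 (interval -0.34 to 0.33) and 0.12 ± 0.11 on ILMN_2789077 (-0.11 to 0.35). The latter probe was higher in Ndst1/2-/- cells than with chlorate (0.33 ± 0.11, adjusted p = 0.0167) and SU5402 (0.31 ± 0.11, adjusted p = 0.0227). The first of these calls was lost without Ndst1/2-/- culture 2 (0.25 to 0.41 over the 12 fits). The second was lost without Ndst1/2-/- culture 2 or 3 or SU5402 culture 1 (0.19 to 0.40).

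The classical cadherin Cdh3 (P-cadherin, chromosome 8), found in placenta and basal epithelia, rose in all 3 comparisons on each of its 3 tested probes. ILMN_3156246 read 7.37, 7.26 and 7.19 untreated, 7.72, 7.73 and 7.58 with chlorate, 7.63, 7.52 and 7.68 with SU5402, and 8.26, 8.33 and 8.31 in Ndst1/2-/- cells. All treated and mutant cultures lay above the untreated ones, and the inhibitor groups overlapped. The rise was 1.32-fold with chlorate (0.40 ± 0.07, adjusted p = 0.000715), 1.26-fold with SU5402 (0.34 ± 0.07, adjusted p = 0.00324) and 2.03-fold in Ndst1/2-/- cells (1.02 ± 0.07, adjusted p = 4.18e-08). ILMN_1222853 gave 0.51, 0.39 and 0.90.

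The third Cdh3 probe, ILMN_2444594, gave 0.45, 0.24 and 0.40, so the probes disagree on the size in Ndst1/2-/- cells. The 2 others put Ndst1/2-/- cells above chlorate (0.62 ± 0.07 and 0.39 ± 0.08, adjusted p = 5.34e-06 and 0.00106), and this one gave -0.05 (interval -0.18 to 0.09). Its SU5402 call was lost without untreated culture 1 or SU5402 culture 1 (0.20 to 0.28), and its call in Ndst1/2-/- cells over SU5402 (0.16 ± 0.06, adjusted p = 0.0437) held in 4 of 12 such fits. The remaining Cdh3 probe was detected on 2 arrays and not tested.

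Cdh1 (E-cadherin), the next protein-coding gene to Cdh3 on chromosome 8, read 10.08, 10.44 and 10.44 untreated, 10.48, 10.68 and 10.60 with chlorate, 10.43, 10.74 and 10.65 with SU5402, and 10.51, 10.68 and 10.54 in Ndst1/2-/- cells. Untreated culture 1 was the lowest of all 12. The differences were 0.27 ± 0.11 with chlorate, 0.29 ± 0.11 with SU5402 and 0.26 ± 0.11 in Ndst1/2-/- cells (adjusted p = 0.0822, 0.0713 and 0.0517), none called. Their 95% intervals were 0.03 to 0.50, 0.06 to 0.52 and 0.02 to 0.49. With an offset of 50 in place of 16 they were 0.26, 0.28 and 0.25 and were called in all 3, as they were without background correction. A fit with the replicate number as a block, given in the closing part, also called all 3. Over the 12 fits that each left out 1 culture, the differences ran from 0.15 to 0.33 with chlorate, 0.17 to 0.37 with SU5402 and 0.14 to 0.32 in Ndst1/2-/- cells. They were called in 0, 1 and 4 of those fits. The adjusted p was highest without untreated culture 1, at 0.297, 0.253 and 0.235. Cdh11 and Cdh23, detected on 6 and 5 of 16 arrays, were called in no comparison.

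Of the 9 tested claudins, 5 were called lower in Ndst1/2-/- cells than untreated (32.2% of all probes were) and 1 higher (30.4% of all). The 5 include Cldn3, undetected in both groups, and Cldn10, for which no bound was above 1. With chlorate 3 claudins were called higher (14.2% of all probes) and with SU5402 3 (11.9%), and Cldn3, Cldn6 and Cldn10 among them lost the call under an alternative given below. The direct tests put 6 of 9 lower in Ndst1/2-/- cells than with chlorate, and 6 of 9 lower than with SU5402, beside shares of 29.3% and 29.5% of all probes. With 9 probes these counts are a description of the probes that passed the filter. Over all 30 probes, Ndst1/2-/- cells against chlorate gave 10 higher (29% of all tested probes) and 10 lower (29.3%), together 66.7% against 58.3% of all. Against SU5402 they gave 10 higher (28.4%) and 8 lower (29.5%), together 60% against 57.9% of all. SU5402 against chlorate gave 2 higher (1.04% of all), Itga3 and Cldn3, and 1 lower (1.5% of all), Itgae probe ILMN_2699898, together 10% against 2.54% of all. That Itgae call (-0.32 ± 0.07, adjusted p = 0.0434) held in 2 of 12 fits that each left out 1 culture.

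Cldn6 (chromosome 17), a claudin of embryonic epithelia, read 9.94, 9.82 and 9.93 untreated, 10.17, 10.20 and 10.11 with chlorate, 10.13, 10.12 and 10.21 with SU5402, and 7.34, 7.39 and 7.35 in Ndst1/2-/- cells. The Ndst1/2-/- cultures were far below the rest and the untreated cultures below both inhibitor groups. The fall was 5.81-fold (-2.54 ± 0.06, adjusted p = 2.57e-12), against rises of 1.20-fold with chlorate (0.27 ± 0.06, adjusted p = 0.00353) and SU5402 (0.26 ± 0.06, adjusted p = 0.00517). Ndst1/2-/- cells were below chlorate by -2.80 ± 0.06 and below SU5402 by -2.80 ± 0.06 (adjusted p = 1.62e-12 and 1.84e-12). The rises with the inhibitors were 0.15 and 0.19 and not called when arrays were scaled to a common median in place of quantiles. The neighbouring Cldn9, the next protein-coding gene on chromosome 17, was called in no comparison, with means from 5.49 to 5.66 in the 4 groups.

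Cldn4 (chromosome 5), an epithelial claudin that is also a receptor for Clostridium enterotoxin, read 9.64, 9.67 and 9.51 untreated, 10.13, 9.97 and 10.06 with chlorate, 10.29, 10.13 and 10.26 with SU5402, and 9.88, 9.77 and 9.81 in Ndst1/2-/- cells. It rose with chlorate (0.45 ± 0.07, adjusted p = 0.000377), with SU5402 (0.62 ± 0.07, adjusted p = 3.77e-05) and in Ndst1/2-/- cells (0.21 ± 0.07, adjusted p = 0.0155), the last lost without untreated culture 3 or Ndst1/2-/- culture 1 (0.17 to 0.25). Ndst1/2-/- cells were below SU5402 by -0.41 ± 0.07 (adjusted p = 0.000231) and below chlorate by -0.23 ± 0.07 (adjusted p = 0.0115), the latter -0.09 and not called with median scaling.

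Cldn3, the next gene to Cldn4 on chromosome 5, was detected on all 4 SU5402 arrays and on 0 of the 12 others. It therefore passed the filter only through the group where it was high, so it had to differ there, and its values are given as a description, with no p-value. Its values were 5.66, 5.10 and 5.15 with SU5402, and 4.70 to 4.79 untreated, 4.69 to 4.83 with chlorate and 4.35 to 4.41 in Ndst1/2-/- cells. With SU5402 it was at least 1.19-fold higher than untreated, at least 1.22-fold higher than with chlorate and at least 1.14-fold higher than in Ndst1/2-/- cells. SU5402 culture 1 was the highest. The call over chlorate was lost without chlorate culture 1, 2 or 3 (fitted log2 difference 0.38 to 0.66). The calls of Ndst1/2-/- cells below untreated and chlorate cells set undetected groups against each other and get no fold, and the latter call was lost without chlorate culture 2.

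**Figure D3:**
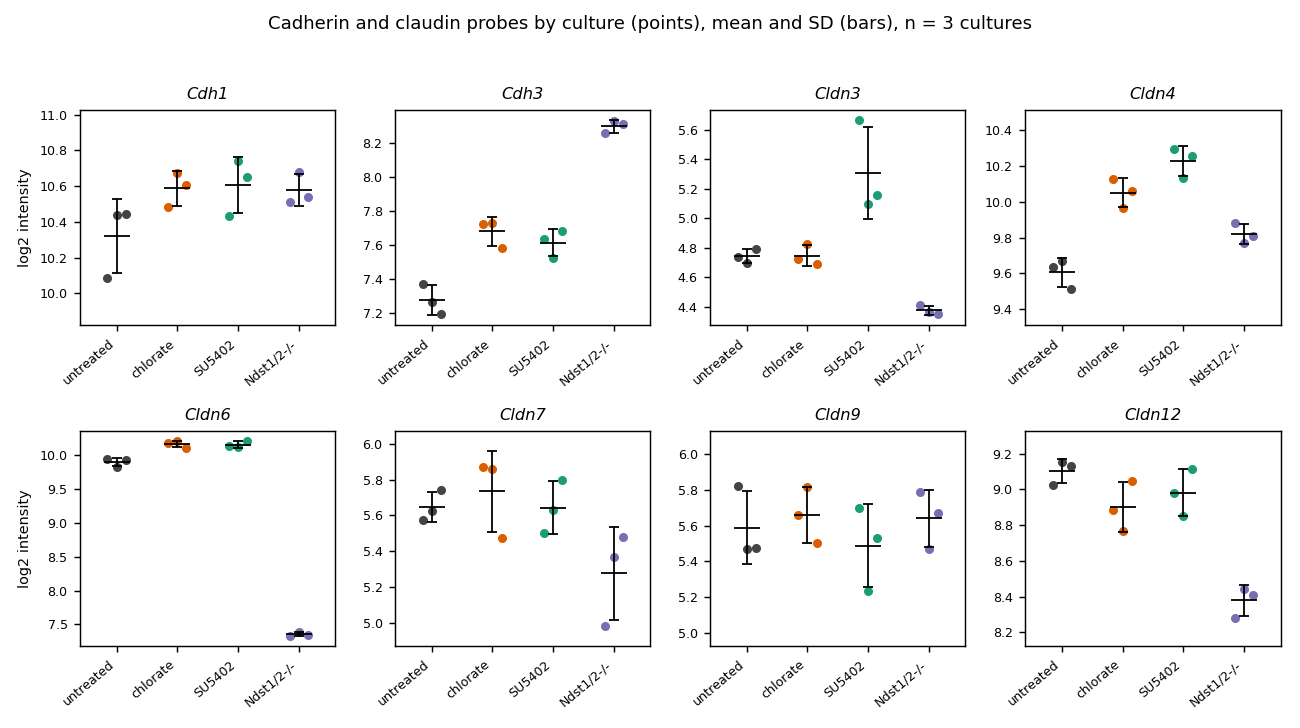
Log2 intensity (y axis, scaled separately in each panel) of 2 cadherin and 6 claudin genes, 1 probe each, in the 3 cultures of each group (points), with group mean and SD (bars). Cldn6 drops to 7.36 in Ndst1/2-/- cells from 9.90 untreated. Cdh3 rises in every group over untreated cells, and Cldn3 stands out in the SU5402 cultures.

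Cldn12, a claudin that forms pores for calcium, read 9.03, 9.15 and 9.13 untreated and 8.28, 8.44 and 8.41 in Ndst1/2-/- cells, a 1.65-fold fall (-0.72 ± 0.09, adjusted p = 8.91e-06) with no overlap. It was also lower there than with chlorate (-0.52 ± 0.09) and SU5402 (-0.60 ± 0.09). Cldn10, a claudin of kidney and secretory epithelia, was detected on 1 untreated array, 4 with chlorate, 3 with SU5402 and 0 in Ndst1/2-/- cells. It passed the filter mainly through the inhibitor groups, where it was high, so its values are a description, with no p-value. It was called higher with chlorate (0.35 ± 0.11), a call lost without untreated culture 2 or 3 or chlorate culture 1 or 3 (0.23 to 0.45). It was called lower in Ndst1/2-/- cells than untreated, with no bound above 1, and was at least 1.08-fold lower than with chlorate and 1.03-fold lower than with SU5402.

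Cldn7, an epithelial claudin, fell in Ndst1/2-/- cells (-0.37 ± 0.13, adjusted p = 0.0291), and that call was lost without untreated culture 2 or 3 or Ndst1/2-/- culture 1 (-0.47 to -0.22). Cldn15 and Cldn34c1 were called in no comparison. On the authors' processed values no call on the dim probes of Itga11, Cldn3 and Cldn10 held: the log2 change of Cldn3 with SU5402 was 0.36 and that of Cldn10 with chlorate 0.13.

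The proteins that integrins, cadherins and claudins bind were read from lists of partner genes, each gene by 1 probe. The shares of all tested probes to read the list counts against are 14.2% higher and 14.2% lower with chlorate, 11.9% and 11.6% with SU5402, and 30.4% and 32.2% in Ndst1/2-/- cells. Of 10 tested integrin ligands, 6 rose with chlorate and 6 with SU5402, and in Ndst1/2-/- cells 6 rose and 3 fell. With chlorate the largest rises were those of the laminin alpha1 chain Lama1 (0.69 ± 0.07, adjusted p = 1.08e-05), of Nid1 (0.54 ± 0.09), which links laminin to collagen IV, and of the collagen IV chain Col4a2 (0.51 ± 0.12). With SU5402 they were Col4a2 (0.55 ± 0.12), Nid1 (0.55 ± 0.09) and Col4a1 (0.52 ± 0.06). The largest rises in Ndst1/2-/- cells were those of Nid1 (1.71 ± 0.09, adjusted p = 4e-09), the laminin gamma1 chain Lamc1 (1.52 ± 0.07) and Col4a1 (1.15 ± 0.06). The list's median log2 change was 0.36, 0.39 and 0.58 for the 3 comparisons in the order above, and that of all tested probes was -0.01, -0.01 and 0.00. The 3 called lower in Ndst1/2-/- cells were the laminin beta1 chain Lamb1 (-0.43 ± 0.13, adjusted p = 0.0108), Thbs1 and Col1a1. Thbs1 and Col1a1 were undetected in Ndst1/2-/- cells, with no bound above 1. Lamb1 rose with the inhibitors (0.48 and 0.42, each ± 0.13). Npnt and Thbs1 were not called with either inhibitor.

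Of 13 tested integrin adaptors and focal adhesion genes, 2 rose and 3 fell with chlorate, 3 rose and 3 fell with SU5402, and 7 rose and 3 fell in Ndst1/2-/- cells. Zyx, an actin-regulating focal adhesion protein, fell by the log2 amounts -0.57 ± 0.06, -0.50 ± 0.06 and -1.76 ± 0.06 (adjusted p = 2.49e-05, 0.000101 and 1.29e-10). The scaffold Bcar1 fell with the inhibitors (-0.53 and -0.48, each ± 0.06) and rose in Ndst1/2-/- cells (0.31 ± 0.06, adjusted p = 0.00114). Parva, which links ILK to actin, rose in all 3 comparisons (0.40, 0.39 and 0.48, each ± 0.11). Talin (Tln1), which activates integrins, rose with SU5402 and in Ndst1/2-/- cells (0.45 and 0.75, each ± 0.09) and was not called with chlorate. In Ndst1/2-/- cells the kindlin Fermt2 rose (1.02 ± 0.09, adjusted p = 9.12e-07). The epithelial kindlin Fermt1, not detected there, passed the filter only through the wild-type groups. It was at least 1.25-fold lower in Ndst1/2-/- cells, given as a description with no p-value. Pxn was called in none of the 3. The list medians were -0.04, 0.15 and 0.26.

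Of 6 tested adherens junction partners, 1 fell with chlorate, 1 rose and 1 fell with SU5402, and 5 rose and 1 fell in Ndst1/2-/- cells. Nectin2, a cell adhesion molecule, fell with both inhibitors (-0.31 ± 0.07 and -0.42 ± 0.07, adjusted p = 0.0036 and 0.000537) and rose in Ndst1/2-/- cells (0.23 ± 0.07, adjusted p = 0.00772). Vinculin (Vcl) rose with SU5402 and in Ndst1/2-/- cells (0.23 and 0.25, each ± 0.06). In Ndst1/2-/- cells p120-catenin (Ctnnd1), undetected in the other groups, passed the filter through this group alone and was at least 1.17-fold higher, alpha-catenin (Ctnna1) rose by 0.45 ± 0.06, and Nectin3 fell (-0.60 ± 0.06, adjusted p = 1.83e-06). Ctnna1 and beta-catenin (Ctnnb1) were not called with either inhibitor. The list medians were 0.06, 0.08 and 0.27, the last 0.24 with Ctnnd1 at its bound.

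Of 12 tested tight junction partners, 4 rose and 2 fell with chlorate, 3 rose with SU5402, and 3 rose and 4 fell in Ndst1/2-/- cells. Jam2, a junctional adhesion molecule, rose by 1.09 ± 0.09, 0.83 ± 0.09 and 0.92 ± 0.09 (adjusted p = 1.53e-06, 2.48e-05 and 1.24e-06). With chlorate the polarity protein gene Pard3 fell (-0.74 ± 0.16) to a mean of 4.97, close to background, and was detected on 2 of 4 chlorate arrays. F11r, the gene of JAM-A, rose with chlorate (0.41 ± 0.06) and SU5402 (0.22 ± 0.06), and it fell in Ndst1/2-/- cells (-0.90 ± 0.06, adjusted p = 7.02e-08). The scaffold Tjp3 was undetected in untreated cells. It passed the filter only through the other groups, where it was high, so its values are a description, with no p-value. It was at least 1.19-fold higher with chlorate, 1.19-fold higher with SU5402 and 1.72-fold higher in Ndst1/2-/- cells. Marveld3, a tight junction membrane protein, passed the filter only through the wild-type groups. It was undetected in Ndst1/2-/- cells and at least 1.45-fold lower there, given as a description with no p-value. The scaffold Tjp1 was called in none of the 3. The list medians were 0.16, 0.11 and -0.10, the last -0.02 with undetected genes at their bounds.

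Of 3 tested desmosome genes the plakophilin Pkp2 fell in all 3 comparisons (-0.52 ± 0.07, -0.28 ± 0.07 and -1.88 ± 0.07, the last at adjusted p = 1.44e-10). The desmosomal cadherin Dsg2 rose in Ndst1/2-/- cells (0.38 ± 0.07, adjusted p = 0.000541), and Pkp3 was called in none. Of 5 tested genes of the wider cadherin superfamily, 1 rose and 1 fell with chlorate, 1 fell with SU5402, and 2 rose and 2 fell in Ndst1/2-/- cells. The protocadherin Pcdh1 fell in all 3 (-0.96 ± 0.08, -0.99 ± 0.08 and -2.04 ± 0.08, the last at adjusted p = 2.12e-10). Celsr3 rose with chlorate (0.45 ± 0.12) and in Ndst1/2-/- cells (1.09 ± 0.12). Fat1 was called in none. The medians were 0.05, -0.13 and 0.11 for desmosome genes and -0.14, 0.00 and -0.03 for the wider superfamily.

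Of 13 tested epithelial and mesenchymal regulators and markers, 2 rose and 4 fell with chlorate, 3 rose and 3 fell with SU5402, and 4 rose and 7 fell in Ndst1/2-/- cells. In Ndst1/2-/- cells the epithelial splicing factor Esrp1 fell (-3.46 ± 0.08, adjusted p = 2.57e-12), with the simple keratin Krt8 (-3.27 ± 0.07, adjusted p = 2.93e-12) and the epithelial transcription factor Grhl2 (-3.16 ± 0.09, adjusted p = 1.67e-11). With chlorate and SU5402 the epithelial ETS factor Elf3 rose (1.70 ± 0.08 and 1.41 ± 0.08, adjusted p = 1.08e-08 and 1.14e-07) and Grhl2 fell (-0.44 ± 0.09 and -0.52 ± 0.09). Klf5, a factor of pluripotent and epithelial cells, fell with chlorate and SU5402 (-0.32 and -0.35, each ± 0.06) and rose in Ndst1/2-/- cells (0.80 ± 0.06, adjusted p = 1.78e-07). Krt8 rose with chlorate and SU5402 (0.29 and 0.46, each ± 0.07). Snai1 was called in none of the 3, at 0.05 ± 0.10 in Ndst1/2-/- cells. Zeb1, which represses epithelial genes at E-boxes, was picked in Ndst1/2-/- cells after its value was seen, since the E-box was searched for: it rose by 1.76 ± 0.08 in Ndst1/2-/- cells (adjusted p = 8.67e-10) and was not called with either inhibitor. Other called genes of the list, also named after their values were seen, moved both ways in Ndst1/2-/- cells. Vim (0.46 ± 0.07) and Elf3 (0.48 ± 0.08) rose, and Twist1 (-0.33 ± 0.10), Ovol2 (-0.43 ± 0.08) and Mmp2 (-0.92 ± 0.05) fell. The keratin Krt18, undetected in Ndst1/2-/- cells, was at least 7.33-fold lower there than untreated. A shift between epithelial and mesenchymal states was not tested. The list medians were -0.02, -0.04 and -0.33.

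**Figure D4:**
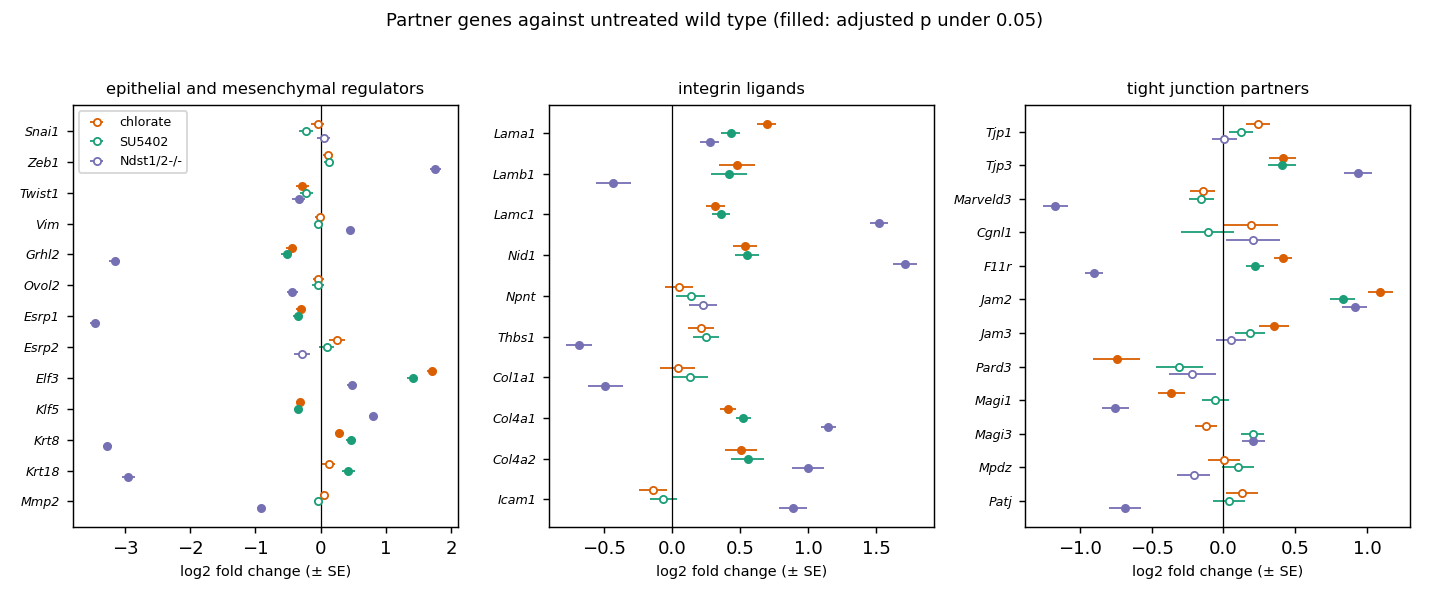
Log2 fold change against untreated wild type (x axis, bars of 1 SE) of the tested genes of 3 partner lists (panels, genes on the y axis), for chlorate, SU5402 and Ndst1/2-/- cells, 3 cultures per group. Filled points passed the adjusted p threshold. Esrp1, Krt8 and Grhl2 lie below -3 in Ndst1/2-/- cells, and Nid1 and Lamc1 lie to the right in all 3 comparisons. Points of genes that a whole group left undetected, such as Krt18, Marveld3 and Tjp3, are fitted values and no bounds.

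Arrays detected 12022 to 12821 probes each. The array has no probe named for Ndst1 or Ndst2, so the targeted genes were not analysed here. All 5 ES cell markers were detected on every array, and their summed intensity was 15432 to 16795 in untreated cultures and 17397 to 19091 in the other groups. They differed in direction. Nanog (0.92, 0.78 and 0.68) and Sox2 rose in all 3 comparisons with untreated cells, and Zfp42 rose with the inhibitors. Utf1 fell in all 3 (-1.50, -1.10 and -0.94), and Pou5f1 was called in none. Of 8 fibroblast markers, 6 (Col1a2, Col3a1, Postn, Lum, Dcn and Twist2) were detected on no array. The sum was 253 to 264 untreated, 218 to 227 with chlorate, 209.6 to 229 with SU5402 and 167 to 174 in Ndst1/2-/- cells. Thy1, detected on every wild-type array, fell with chlorate and SU5402 (-0.60 and -0.74, each ± 0.09) and was undetected in Ndst1/2-/- cells. Col1a1, detected on 7 arrays and on 0 of Ndst1/2-/- cells, was not called with either inhibitor. The sum of 6 trophectoderm markers was 1325 to 1359 untreated, 3535 to 3674 with chlorate, 3522 to 3794 with SU5402 and 1616 to 1726 in Ndst1/2-/- cells, with Elf5 and Hand1 undetected throughout. The members did not move together: Gata3 and Tfap2c rose in all 3 comparisons (Gata3 by 1.53, 1.31 and 0.49), and Krt7 rose with the inhibitors. In Ndst1/2-/- cells Cdx2 and Krt7, detected on every wild-type array, were detected on 0 arrays. The 7 primitive endoderm markers summed to 451 to 479.7, 554 to 598, 535 to 576 and 280.3 to 314 in the same order, with Sox17 and Foxa2 undetected. Dab2 rose with the inhibitors (0.60 and 0.48) and fell in Ndst1/2-/- cells (-1.23). Gata6 fell with the inhibitors (-0.37 and -0.38) and was undetected in Ndst1/2-/- cells, where Sox7 rose (0.74). The 6 blood and endothelium markers summed to 322 to 375, 365 to 439, 401 to 411 and 478 to 532, with Ptprc undetected. The part of these markers in the results was not tested, and in such bulk RNA fewer cells of a type and less RNA per cell cannot be told apart.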

How the data were processed

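For 25697 probes on 16 Illumina arrays the authors deposited raw bead intensity averaged by probe, with a detection p-value each, as named per the file headers. BeadStudio is named in the submitters' processing notes, and its version was not given in the sources used here. A table of processed intensity, deposited by the authors without its method stated per the file headers and with 53.11% of values at 20, was an alternative.

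Intensities were corrected with the normal-exponential model from the detection p-values (neqc in limma 3.58.1, R 4.3.3), with an offset of 16 added before quantile normalization and log2. The 2 arrays of culture 3 were averaged. Probes with a mean detection p-value under 0.01 in at least 3 of 12 cultures (13377 probes) entered a single limma fit of the 4 groups (8 residual and 4.37 prior degrees of freedom), with Benjamini-Hochberg adjustment within each comparison. Fold changes include the offset, which understates those of dim probes. Precision is limited by the number of cultures, 3 per group. Labels call the cultures biological replicates, and p-values measure only the spread between them: cultures of a group differed by 0.0948 to 0.117 (median absolute log2 difference) and arrays of 1 culture by 0.0973 to 0.106. These ranges overlap, and cultures of a group differed about as much as duplicate arrays of 1 culture. Before normalization, arrays of replicates 1 and 3 had mean intensities of 412 to 454, and those of replicates 2 and 3r 369 to 400. Every pair of duplicate arrays crossed these 2 array sets. The comparison therefore cannot show how far cultures vary beyond duplicate arrays.

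Gene symbols came from the platform annotation (23978 probes with 1 symbol, 1719 with none). The reference table gave names, chromosomes and gene order. The array files name no genome build, so only promoter windows carry coordinates. The members and lists were chosen with earlier results of these data known. Every tested member could be named. From each partner list, up to 3 called genes of largest change per comparison and up to 2 listed first among those not called could be named, each gene by its brightest tested probe. The script was tested on simulated data. Alternatives varied background correction, scaling, offset, filter, array sets, blocks and left-out cultures. The files give no slide or scan time. Whether the replicate numbers pair the cultures was checked. Correlations of same-numbered deviations ran from -0.00942 to 0.19 over 18 pairs, and those of differently numbered ones from -0.174 to 0.118. The ranges overlapped, while 9 of 12 cultures lay closest to a culture of another group with their own number, so a shared effect of the number remains possible. Arrays of number 1 were all in the brighter array set and those of number 2 in the dimmer one, and number 3 averaged both. For numbers 1 and 2, number and array set cannot be told apart. The main fit did not take the numbers as pairs, and a fit with the number as a block is given below.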

Additional observations from a re-analysis of the deposited data

How the results depend on the processing

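Of 180 pairs of probe and comparison, 84 were called, 70 of them in all 12 fits that each left out 1 culture, and no called value changed sign under any alternative run. Counts of called member probes moved as follows. The count higher with chlorate went from 8 to 5 in the arrays of replicates 1 and 3 alone and to 5 in arrays 2 and 3r alone, each with fewer arrays, and the count higher with SU5402 from 8 to 3 in the latter. The 10 lower in Ndst1/2-/- cells than untreated became 6, and the 10 lower than chlorate 6, when probes had to be detected in all 12 cultures, which tests fewer probes; in arrays 2 and 3r alone the latter count was 6. The 8 lower in Ndst1/2-/- cells than with SU5402 became 5 in the authors' processed values and 4 with detection in all 12. For SU5402 against chlorate, the 2 higher became 1 in the authors' values, with no filter and with detection in all 12, 0 in each array set alone, and 1 to 2 with a culture left out. The 1 lower became 0 with median scaling, the authors' values, no filter, the first array of culture 3 only and either array set, and 0 to 1 with a culture left out. The cause was not tested. With the replicate number as a block (replicate block), that count was also 0, and the counts against untreated cells were 9 higher and 2 lower with chlorate, 9 and 4 with SU5402, and 13 and 10 in Ndst1/2-/- cells; 9 of 12 cultures lay closest to a culture with their own number. With the block, Cdh1 passed the threshold in all 3 comparisons with untreated cells, at 0.27, 0.29 and 0.26. Over all probes, median scaling put 37.7% of chlorate calls higher, against 50.1%, and 60% of calls in Ndst1/2-/- cells against chlorate, against 49.8%. A block by slide or scan time was not run. Dim probes near background limit Itga11, Cldn3 and Cldn10.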
